A study of Homo sapiens with 36 samples.

Results

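The DNA replication and G1/S genes described here are a set of 59 genes chosen by symbol for their roles in origin licensing, helicase activation, DNA synthesis, nucleotide supply, the G1/S transition and chromatin copying at the replication fork. Their mRNAs were followed in TC32 cells, a human Ewing sarcoma cell line. A probe counted as measured where its detection p-value was below 0.01 on at least 3 of 36 bead arrays. By that rule 78 probes of 56 genes were measured, among 11437 genes measured in all. The other members were listed at detection on 0 of 36 arrays for GINS1 and E2F8 and on 1 of 36 arrays for CCNE2, and no change is given for them.

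TC32 cells were transfected with siRNA and their total RNA was hybridized to Illumina arrays 48 h later. SUPT6H, the gene of the histone chaperone and elongation factor SPT6, was silenced with siRNAs A1, A3 and Q3 (siSUPT6H). SF3B1, the gene of a core U2 spliceosome protein, was silenced with siRNAs A2, A3 and Q3 (siSF3B1), and HNRNPH1, the gene of the splicing regulator hnRNP H1, with siRNAs A2, A3 and Q3 (siHNRNPH1). Each siRNA had 3 arrays. A negative control siRNA (siNeg) had 6 arrays, numbered 1 to 3 (set 1) and 4 to 6 (set 2), and 3 arrays were labelled Untreated. A dose of 20 nM is given for every array, Untreated ones included. In the treatment text the cells are called untransfected or transfected, so Untreated was read as untransfected. siSUPT6H and siSF3B1 were compared with siNeg set 1, siHNRNPH1 with siNeg set 2 and siNeg set 1 with Untreated, because the authors' normalized values fall into 2 distributions along that line. These comparisons of siSUPT6H, siSF3B1 and siNeg set 1 therefore share the 3 arrays of siNeg set 1. The labels do not say whether the 3 arrays of a group came from separate cultures, so the spread between them may be technical.

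Between 13106 and 16788 probes were detected per array. The range was 14990 to 16788 for siSUPT6H, 13106 to 14853 for siSF3B1 and 14426 to 15901 for siHNRNPH1, against 15412 to 16295 for siNeg set 1, 15319 to 15717 for siNeg set 2 and 14613 to 15814 for Untreated. All siSF3B1 arrays thus had fewer detected probes than all siNeg arrays, and the part of this in the siSF3B1 results was not tested. Each targeted mRNA was lower with its own siRNAs, at 29.3% of siNeg for SUPT6H, 40.9% for SF3B1 and 39.2% for HNRNPH1. The siSUPT6H siRNAs were unequal, leaving 21.6% with A1, 25.2% with A3 and 45.9% with Q3. The detection p of SUPT6H was 0.139, 0.0299 and 0.0195 on the A1 arrays and 0.0169 on one A3 array, not below 0.01. The A1 and A3 percentages, and the mean of 29.3%, therefore rest in part on values at or below detection. SUPT6H mRNA was also lower with siSF3B1, at 45.4% of siNeg, and with siHNRNPH1, at 58.4%, and HNRNPH1 mRNA was lower with siSUPT6H, at 66.6% of siNeg (limma, adjusted p = 7.36e-07). Of 6 Ewing sarcoma markers 5 were detected on all 36 arrays and the remaining one had no annotated probe. Of 5 blood markers 4 were detected on no array and the fifth had no annotated probe. Of the epithelial markers KRT18 was detected on all 36 arrays, EPCAM on 3, and CDH1 and KRT5 on 0. Of the fibroblast markers COL3A1 was detected on all 36 arrays, COL1A1 on 31, DCN on 8 and LUM on 0. Of 3 endothelial markers PECAM1 was detected on 9 arrays, and CDH5 and VWF on 0.

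Replication starts in G1, when the origin recognition complex, CDC6 and CDT1 load the MCM helicase onto origins. At the G1/S transition cyclin E with CDK2, and the kinase CDC7, help to turn the loaded helicase into the active form with CDC45 and GINS, after which primase, the DNA polymerases, the sliding clamp PCNA and its loader RFC copy the template. E2F factors switch on many of these genes as cells leave G1. In cells as a bulk, fewer cells in S phase and less mRNA per cell cannot be told apart.

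To show what many members share in sequence, the windows from 250 bases before to 50 bases after the gene start were read from RefSeq (GRCh38.p14) for the 49 members that had one. An E2F motif, here TTTCCCGC, TTTCGCGC, TTTGCCGC or TTTGGCGC on either strand, was found in 22 of the 49 windows (44.9%), against 3.31% of 35116 promoter windows and 3 of 38 windows of G2/M and mitosis genes (7.89%). The letters CCAAT, on either strand, were in 26 of 49 member windows (53.1%), against 34.6% of all windows and 30 of 38 windows of G2/M genes (78.9%). TTTGAA, the cell cycle homology region, was in 2 of 49 member windows (4.08%), against 15.2% of all windows and 28 of 38 G2/M windows (73.7%). Such a match is a run of letters and not a shown binding site. The motifs overlap with each other in some windows. The following stretches are shown because their genes recur in the results, POLE and LIG1 as genes lower with all 9 siRNAs, CDT1, RFC3 and E2F2 as genes that moved in opposite directions with siSUPT6H and siSF3B1, and MCM2 and PCNA as the best known members. Each is written 5′ to 3′ on the gene's strand, with the E2F motif or its complement in capitals.
POLE, chr12:132687342-132687371, minus strand: tgggtgggagcGCGCCAAAtttctcccctg
LIG1, chr19:48170440-48170469, minus strand: acttcacccctTTTCCCGCcctcctcccat
CDT1, chr16:88803743-88803772, plus strand: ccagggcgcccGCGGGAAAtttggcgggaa
RFC3, chr13:33818083-33818112, plus strand: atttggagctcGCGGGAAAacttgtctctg
E2F2, chr1:23531257-23531286, minus strand: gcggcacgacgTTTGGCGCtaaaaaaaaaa
MCM2, chr3:127598402-127598431, plus strand: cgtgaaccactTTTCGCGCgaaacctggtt
PCNA, chr20:5126663-5126692, minus strand: cagcgtcagggGCGGGAAAaggcgtgcgtt
The motif of MCM2 lies just after the gene start and those of the other 6 lie before it. PRIM1, RFC4 and ORC1, which also recur below, had no such match in their windows. An E2F motif was in 12 of the 24 windows (50%) of members lower with all 3 siSUPT6H siRNAs, in 4 of 14 windows (28.6%) of those lower with all 3 siSF3B1 siRNAs and in 4 of 8 windows (50%) of those higher with all 3 siSF3B1 siRNAs.

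Most of the set was lower after SUPT6H silencing. With siSUPT6H 38 of 56 members were lower than in siNeg and 4 were higher, while 14 did not pass the test (limma, Benjamini-Hochberg adjusted p below 0.05 over all 11437 genes, mean of the 3 siRNAs). The corresponding shares of all genes were 21.8% lower and 25.7% higher. The median change of the members was −0.40 on the log2 scale, against 0.03 for all genes. With each of the 3 siRNAs called, 26 members were lower and 0 were higher, also 0 at an unadjusted p under 0.05, where 11.2% and 12.4% of all genes were called. In 29 members all 9 siSUPT6H arrays lay below all 3 siNeg arrays and in 0 members above them, against 13.3% and 14.7% of all genes. The median change was −0.41 with A1, −0.55 with A3 and −0.26 with Q3, the siRNA that left the most SUPT6H mRNA. In a random-block model, which treats the siRNAs of a target as a random sample, 24 members were lower (8.22% of all genes) and 0 were higher, also 0 at an unadjusted p under 0.05 by limma.

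Silencing SF3B1 moved members both ways. With siSF3B1 17 members were lower, 17 were higher and 22 did not pass, at shares of 30.4% each against 35.7% lower and 26.2% higher among all genes. The median change was 0.05, against −0.06 for all genes. With all 3 siRNAs 14 members were lower and 10 were higher, near the 24.7% and 18.0% of all genes. All 9 siSF3B1 arrays lay below siNeg in 16 members and above it in 10, against 25.6% and 19.1% of all genes. With siRNAs as a random block 12 members were lower and 9 were higher, against 20.4% and 15.2% of all genes. These shares are close to the background, so they are not a result about the set.

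With siHNRNPH1 18 were lower and 5 were higher, against 23.5% and 21.6% of all genes, and the median was −0.15, against −0.02 for all genes. With all 3 siRNAs 5 members were lower, a share close to the 9.99% of all genes. None was higher with all 3 (1 at an unadjusted p under 0.05 with each), against 9.43% of all genes. All 9 siHNRNPH1 arrays lay below siNeg in 7 members and above it in 0, against 11.1% and 10.5% of all genes. With siRNAs as a random block 5 members were lower (6.58% of all genes) and 0 were higher, also 0 at an unadjusted p under 0.05 by limma.

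PRIM1, POLE, RFC4 and LIG1 were lower with all 9 siRNAs, where 3.23% of all genes were. No member was higher with all 9, where 1.53% of all genes were. CDC45, POLD1, POLD2, RFC2, CHAF1B and DNMT1 were lower with all 3 siSUPT6H and all 3 siSF3B1 siRNAs. ORC1, CDT1, RFC3, DUT and E2F2 were lower with all 3 siSUPT6H siRNAs and higher with all 3 siSF3B1 siRNAs. The shares of all genes with either of these last patterns were not counted, so neither is read as particular to the set. In 21 members no target had a call with all 3 of its siRNAs, MCM3, MCM4, MCM6, PCNA and TK1 among them.

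**Figure D1:**
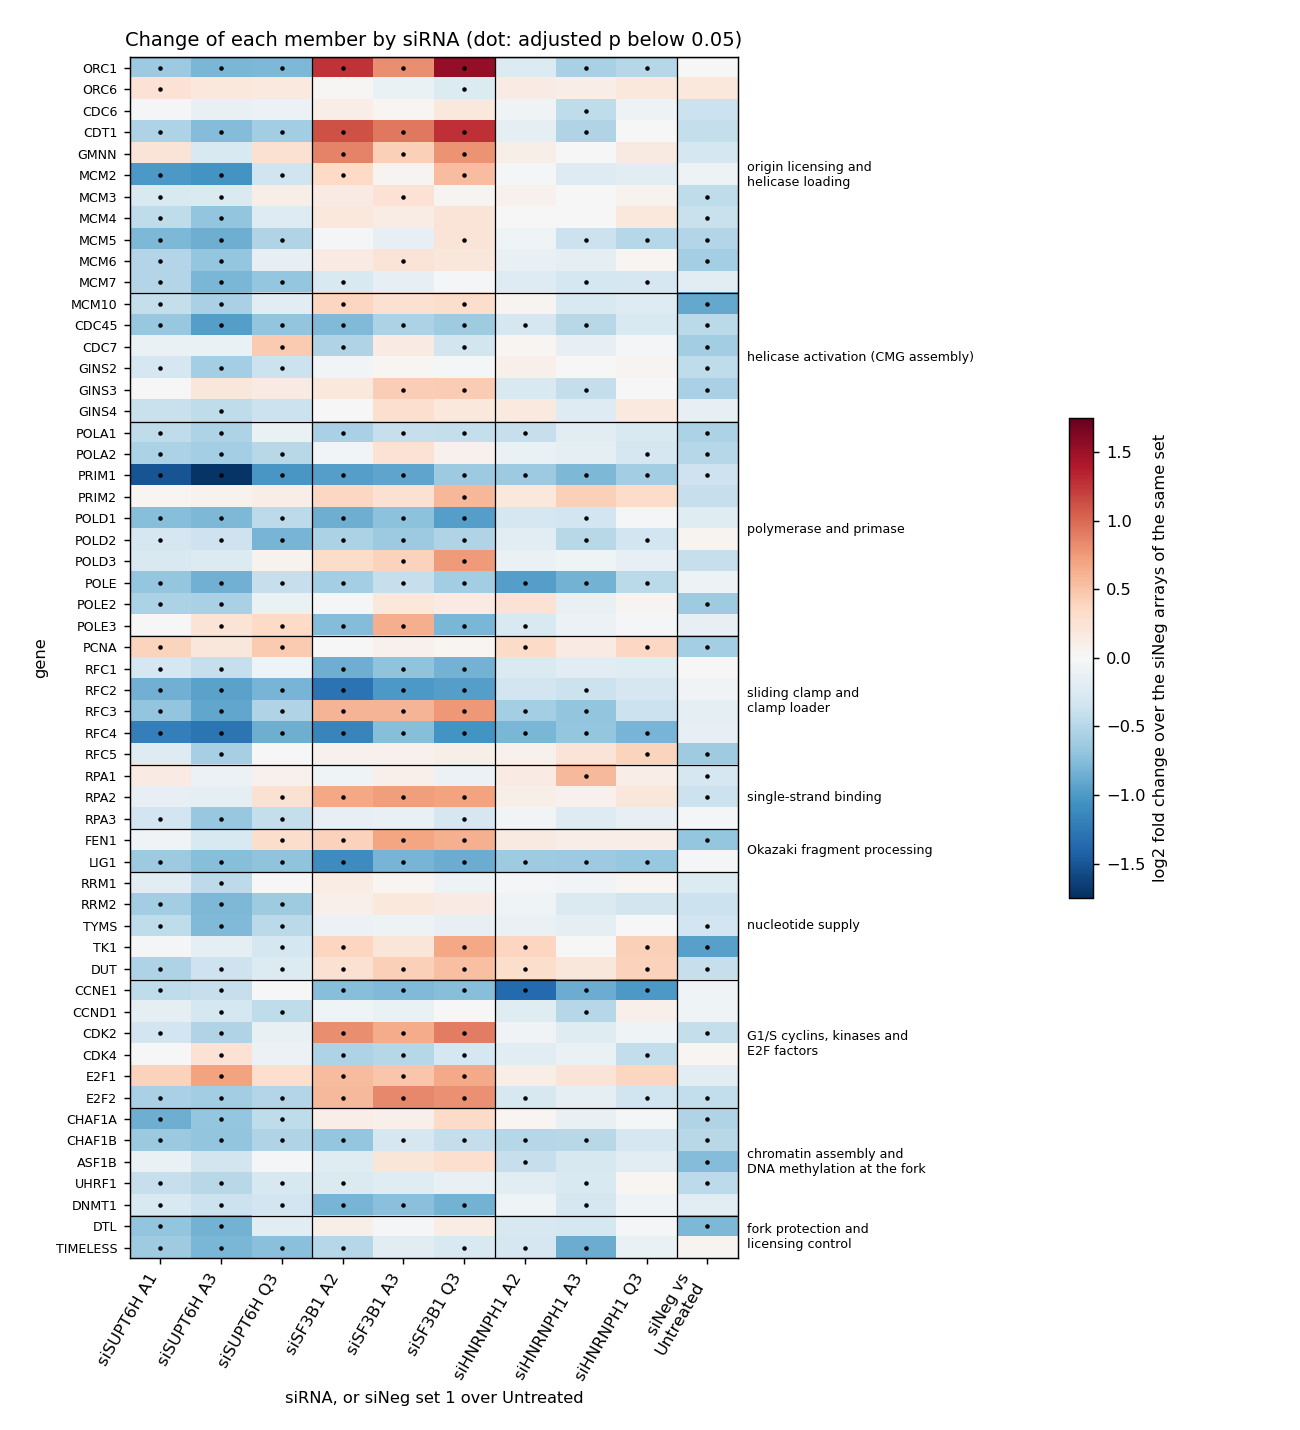
Log2 fold change of each of the 56 measured members (rows, grouped by role) with each siRNA over the siNeg arrays of the same set, and of siNeg set 1 over Untreated in the last column. Blue is lower, red is higher, and a dot marks an adjusted p below 0.05. The siSUPT6H columns are mostly blue, PRIM1 and RFC4 are blue with all 9 siRNAs, and ORC1 and CDT1 are blue with siSUPT6H and red with siSF3B1.

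The counts by role from here on are to be read against the shares of all genes. By limma 21.8% of all genes were lower and 25.7% higher with siSUPT6H, 35.7% and 26.2% with siSF3B1, and 23.5% and 21.6% with siHNRNPH1. In the random-block model these shares were 8.22% and 9.74%, 20.4% and 15.2%, and 6.58% and 7.60% in that order. Of 11 genes of origin licensing and helicase loading 7 were lower and 1 was higher with siSUPT6H (median −0.45). With siSF3B1 0 were lower and 5 were higher (median 0.18), and with siHNRNPH1 3 were lower and 0 were higher (median −0.15). At an unadjusted p under 0.05 by limma 0 were lower with siSF3B1 and 0 higher with siHNRNPH1. In the limma model with siRNAs as a random block 6 were lower with siSUPT6H (ORC1, CDT1, MCM2, MCM5, MCM6 and MCM7) and 3 were higher with siSF3B1 (ORC1, CDT1 and GMNN). With siHNRNPH1 0 were then lower, also 0 at an unadjusted p under 0.05, with adjusted p of 0.222 for ORC1, 0.234 for MCM5 and 0.300 for MCM7. MCM7 had the most negative change of the 11 with siSF3B1, −0.15 ± 0.09 (SE, adjusted p = 0.129).

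ORC1 encodes the largest subunit of the origin recognition complex. Its log2 normalized intensity was 5.13, 5.20 and 5.14 with siSUPT6H A1, 5.24, 4.83 and 4.94 with A3 and 4.96, 5.04 and 5.03 with Q3, and 6.99, 7.18 and 7.02 with siSF3B1 A2, 6.80, 6.59 and 6.43 with A3 and 7.35, 7.42 and 7.26 with Q3, against 5.96, 5.74 and 5.70 in siNeg set 1. All siSUPT6H arrays lay below and all siSF3B1 arrays above the siNeg arrays. The change was −0.74 ± 0.12 (SE) with siSUPT6H (adjusted p = 6.18e-07) and 1.21 ± 0.12 with siSF3B1 (adjusted p = 7.29e-13). With siHNRNPH1 ORC1 was 5.26 at the lowest, 5.45 at the median and 5.96 at the highest of 9 arrays, against 5.94, 6.17 and 5.83 in siNeg set 2, so the groups overlapped, and the change was −0.44 ± 0.12.

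CDT1, which brings the MCM helicase to the origin, moved in the same directions. Its values with siSUPT6H were 5.21 at the lowest, 5.71 at the median and 6.01 at the highest of 9 arrays, and with siSF3B1 7.17, 7.48 and 7.73, against 6.18, 6.39 and 6.40 in siNeg set 1. Neither siRNA group overlapped with siNeg. The changes were −0.64 ± 0.12 (adjusted p = 7.48e-06) with siSUPT6H and 1.11 ± 0.12 (adjusted p = 5.34e-12) with siSF3B1. GMNN encodes geminin, the inhibitor of CDT1. It rose with siSF3B1 by 0.69 ± 0.09 (adjusted p = 9.12e-09) and changed by 0.07 ± 0.09 with siSUPT6H (adjusted p = 0.576).

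The MCM genes encode the 6 subunits of the helicase. With siSUPT6H MCM2, MCM4, MCM5, MCM6 and MCM7 were lower, while MCM3 had a change of −0.14 ± 0.08 (adjusted p = 0.139) at its brighter probe. The dimmer MCM3 probe fell by 0.38 ± 0.09 with siSUPT6H (adjusted p = 0.000813) and rose by 0.41 ± 0.09 with siSF3B1. MCM2 was 7.16, 7.07 and 7.08 with A1, 7.04, 7.06 and 7.08 with A3 and 7.68, 7.71 and 7.89 with Q3, against 8.04, 8.08 and 8.22 in siNeg set 1. All 9 arrays were below siNeg, the Q3 arrays by the least. The change of MCM2 was −0.80 ± 0.08 (adjusted p = 4.42e-12), and the siRNAs differed (F test, adjusted p = 5.36e-08). MCM5 fell by 0.73 ± 0.08 and MCM7 by 0.67 ± 0.09 with siSUPT6H, both with each of the 3 siRNAs. MCM4 and MCM6 were lower with A1 and A3, and MCM6 had −0.14 ± 0.09 with Q3 (adjusted p = 0.235).

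With siSF3B1 MCM2 was 8.45, 8.45 and 8.49 with A2, 8.15, 8.25 and 8.08 with A3 and 8.59, 8.75 and 8.62 with Q3, overlapping with siNeg set 1 through the A3 arrays. Its change was 0.31 ± 0.08 (adjusted p = 0.000776). MCM6 rose by 0.19 ± 0.08 (adjusted p = 0.024). With siHNRNPH1 MCM2 was 8.44, 8.46 and 8.69 with A2, 8.28, 8.35 and 8.42 with A3 and 8.29, 8.34 and 8.51 with Q3, against 8.74, 8.54 and 8.43 in siNeg set 2, and these groups overlapped. Of the MCM genes MCM5 (−0.31 ± 0.08) and MCM7 (−0.28 ± 0.09) were called lower with siHNRNPH1. MCM7 also had a dimmer second probe that rose by 0.63 ± 0.14 with siSF3B1, where the probe used here did not pass.

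ORC6 was higher with siSUPT6H at its brighter probe (0.20 ± 0.07) and lower at its dimmer one (−0.95 ± 0.10), so the direction of this gene is not settled. CDC6, which loads the helicase with ORC, was detected on 0 of 9 siSUPT6H arrays, 1 of 9 siSF3B1 arrays and 0 of 3 arrays of siNeg set 1, and no fold change is given for it.

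Of 6 measured genes of helicase activation 4 were lower and 0 were higher with siSUPT6H, 1 was lower and 2 were higher with siSF3B1, and 1 was lower and 0 were higher with siHNRNPH1. CDC45 and GINS2 were called lower with siSUPT6H, and CDC45 with siSF3B1, in the random-block model. The adjusted p was then 0.171 for MCM10 and 0.354 for GINS4 with siSUPT6H, 0.224 for MCM10 and 0.172 for GINS3 with siSF3B1 and 0.184 for CDC45 with siHNRNPH1. CDC45, which completes the active helicase, fell by 0.77 ± 0.09 with siSUPT6H, by 0.65 ± 0.09 with siSF3B1 and by 0.35 ± 0.09 with siHNRNPH1. GINS2, a GINS subunit, fell by 0.42 ± 0.08 with siSUPT6H and had −0.02 ± 0.08 with siSF3B1. MCM10, which helps to activate the helicase, fell by 0.40 ± 0.10 with siSUPT6H and rose by 0.31 ± 0.10 with siSF3B1. CDC7, the kinase that phosphorylates the MCM complex, had 0.46 with siSUPT6H Q3 but −0.12 with A1 and −0.11 with A3 (F test, adjusted p = 0.000756). Of the other GINS subunits GINS3 rose by 0.35 ± 0.10 with siSF3B1 and GINS4 fell by 0.40 ± 0.15 with siSUPT6H. At an unadjusted p under 0.05 by limma 0 genes of helicase activation were higher with siSUPT6H or siHNRNPH1.

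Of 10 polymerase and primase genes 7 were lower and 1 was higher with siSUPT6H (median −0.45), 6 were lower and 2 were higher with siSF3B1 (median −0.38), and 4 were lower and 0 were higher with siHNRNPH1 (median −0.21). The lower counts in the random-block model were 5, 4 and 2 in that order, with PRIM1 and POLE in each, and 0 were higher with any target (by limma at an unadjusted p under 0.05, 1 with siSF3B1 and 0 with the others). PRIM1, the catalytic subunit of primase, which makes the RNA primers, had the largest fall of all members with siSUPT6H. It was 7.54, 7.89 and 7.66 with A1, 7.51, 7.47 and 7.53 with A3 and 8.04, 8.12 and 8.40 with Q3, against 9.27, 9.08 and 9.27 in siNeg set 1. With siSF3B1 PRIM1 was 8.15, 8.17 and 8.41 with A2, 8.32, 8.17 and 8.38 with A3 and 8.58, 8.50 and 8.64 with Q3, below every array of the same siNeg set. With siHNRNPH1 it was 8.69, 8.43 and 8.68 with A2, 8.35, 8.38 and 8.64 with A3 and 8.47, 8.67 and 8.77 with Q3, against 9.42, 9.08 and 9.24 in siNeg set 2. In none of these comparisons did the groups overlap. The changes of PRIM1 were −1.41 ± 0.09, −0.84 ± 0.09 and −0.68 ± 0.09 with siSUPT6H, siSF3B1 and siHNRNPH1 in that order, and its second probe fell by 1.64, 1.10 and 0.79 in the same order. PRIM2, the regulatory subunit of primase, was detected on 0 of 9 siSUPT6H, 1 of 9 siSF3B1 and 4 of 9 siHNRNPH1 arrays and on none of the siNeg arrays, so its called rise with siSF3B1 rests on values at or below detection.

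POLE encodes the catalytic subunit of the leading strand polymerase. POLE was 6.38 at the lowest, 6.68 at the median and 6.99 at the highest of 9 arrays with siSUPT6H, and 6.60, 6.80 and 7.17 with siSF3B1, against 7.48, 7.25 and 7.29 in siNeg set 1. With siHNRNPH1 POLE was 6.63, 7.09 and 7.64 by the same measures, against 7.90, 8.02 and 7.65 in siNeg set 2. All 3 targets were below their siNeg arrays without overlap, by 0.64 ± 0.11, 0.54 ± 0.11 and 0.75 ± 0.11 in that order. POLD1, the catalytic subunit of the lagging strand polymerase, had 5.80, 6.29 and 6.49 with siSUPT6H and 5.76, 6.03 and 6.26 with siSF3B1 as lowest, median and highest, against 6.91, 6.83 and 6.92 in siNeg set 1. These fell by 0.66 ± 0.11 and 0.85 ± 0.11, while POLD1 had −0.22 ± 0.11 with siHNRNPH1 (adjusted p = 0.102). POLD2, a further subunit of that polymerase, fell by 0.49 ± 0.07, 0.57 ± 0.07 and 0.34 ± 0.07 in the same order, though its dimmer probe had 0.07 ± 0.13 with siSF3B1.

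Not all polymerase subunits moved together. POLA1, the catalytic subunit of polymerase alpha, fell with all 3 siSF3B1 siRNAs (−0.46 ± 0.11) at its brighter probe and had 0.07 ± 0.12 at its dimmer one, whereas its partner POLA2 had 0.09 ± 0.10 (adjusted p = 0.448). POLD3, an accessory subunit of the lagging strand polymerase, rose by 0.49 ± 0.13 with siSF3B1. POLE2, the second subunit of polymerase epsilon, fell by 0.41 ± 0.11 with siSUPT6H and had 0.09 ± 0.11 with siSF3B1. POLE3, a histone-fold subunit of polymerase epsilon, separated the siSF3B1 siRNAs. It was 9.53, 9.45 and 9.56 with A2, 10.91, 10.97 and 10.86 with A3 and 9.36, 9.57 and 9.47 with Q3, against 10.24, 10.15 and 10.42 in siNeg set 1. A2 and Q3 arrays lay below and A3 arrays above siNeg (F test, adjusted p = 4.57e-18), so the called mean of −0.30 describes none of the siRNAs.

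The clamp loader genes took different directions with siSF3B1. Of the 6 genes of the clamp and its loader, 5 were lower and 1 was higher with siSUPT6H (median −0.49), 3 were lower and 1 was higher with siSF3B1 (median −0.38), and 3 were lower and 2 were higher with siHNRNPH1 (median −0.28). Under the random block RFC2, RFC3 and RFC4 were lower with siSUPT6H, RFC1, RFC2 and RFC4 lower and RFC3 higher with siSF3B1, and RFC4 lower with siHNRNPH1. RFC4, a small subunit of the loader, was 8.11, 7.94 and 8.06 with siSUPT6H A1, 7.87, 7.94 and 8.06 with A3 and 8.27, 8.33 and 8.54 with Q3, and 8.08, 8.01 and 8.20 with siSF3B1 A2, 8.64, 8.27 and 8.60 with A3 and 8.14, 8.27 and 8.15 with Q3, against 9.06, 9.29 and 9.36 in siNeg set 1. With siHNRNPH1 RFC4 was 8.32 at the lowest, 8.58 at the median and 8.69 at the highest of 9 arrays, against 9.16, 9.24 and 9.50 in siNeg set 2. It was below siNeg on all arrays of all 3 targets. The changes of RFC4 were −1.11 ± 0.09 with siSUPT6H, −0.98 ± 0.09 with siSF3B1 and −0.76 ± 0.09 with siHNRNPH1, with adjusted p of 1.40e-15, 4.89e-14 and 3.03e-10 in that order.

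RFC2, another small subunit, was 7.0 at the lowest, 7.08 at the median and 7.51 at the highest with siSUPT6H, and 6.51, 6.97 and 7.18 with siSF3B1, against 8.19, 8.0 and 7.91 in siNeg set 1. It fell by 0.86 ± 0.12 and by 1.09 ± 0.12. A dimmer probe of RFC2 fell by 0.35 ± 0.13 with siSUPT6H and had 0.00 ± 0.13 with siSF3B1, so the siSF3B1 fall was seen at the brighter probe only. RFC1, the large subunit, fell by 0.80 ± 0.10 with siSF3B1 and by 0.27 ± 0.10 with siSUPT6H. A dimmer probe of RFC1 had −0.25 ± 0.15 and −0.10 ± 0.15 in the same order, neither called. That probe fell by 0.57 ± 0.15 with siHNRNPH1, where the brighter one was not called. RFC3, in contrast, rose with siSF3B1. It had 5.53, 5.90 and 6.30 with siSUPT6H and 7.17, 7.26 and 7.54 with siSF3B1 as lowest, median and highest, against 6.70, 6.52 and 6.69 in siNeg set 1. Neither group overlapped with siNeg, with changes of −0.71 ± 0.13 and 0.65 ± 0.13. Its dimmest probe had 0.05 ± 0.13 with siSUPT6H and rose by 0.33 ± 0.13 with siSF3B1. RFC3 fell by 0.55 ± 0.13 with siHNRNPH1, and RFC5 had 0.09 ± 0.09 with siSF3B1.

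PCNA, the sliding clamp and a common marker of cycling cells, was called lower with none of the targets. It was 10.25, 10.55 and 10.50 with siSUPT6H A1, 10.32, 10.01 and 10.42 with A3 and 10.48, 10.60 and 10.42 with Q3, and 9.95, 9.99 and 10.17 with siSF3B1 A2, 10.01, 10.22 and 10.14 with A3 and 10.06, 10.04 and 10.14 with Q3, against 10.05, 9.95 and 10.13 in siNeg set 1. With siHNRNPH1 PCNA was 8.57, 8.61 and 9.02 with A2, 8.51, 8.44 and 8.74 with A3 and 8.64, 8.66 and 9.02 with Q3, against 8.76, 8.12 and 8.35 in siNeg set 2. All 3 comparisons overlapped. PCNA was called higher with siSUPT6H (0.35 ± 0.10, adjusted p = 0.00281) and with siHNRNPH1 (0.28 ± 0.10, adjusted p = 0.017), and had 0.03 ± 0.10 with siSF3B1. Its 2 dimmer probes had −0.25 ± 0.13 and −0.09 ± 0.13 with siSUPT6H, neither called, and 0.53 ± 0.13 (adjusted p = 0.000418) and 0.12 ± 0.13 with siSF3B1, the first of them called. Against Untreated PCNA was lower with siSUPT6H, by −0.25 ± 0.10 (adjusted p = 0.0343), so the direction of this gene depends on the control.

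**Figure D2:**
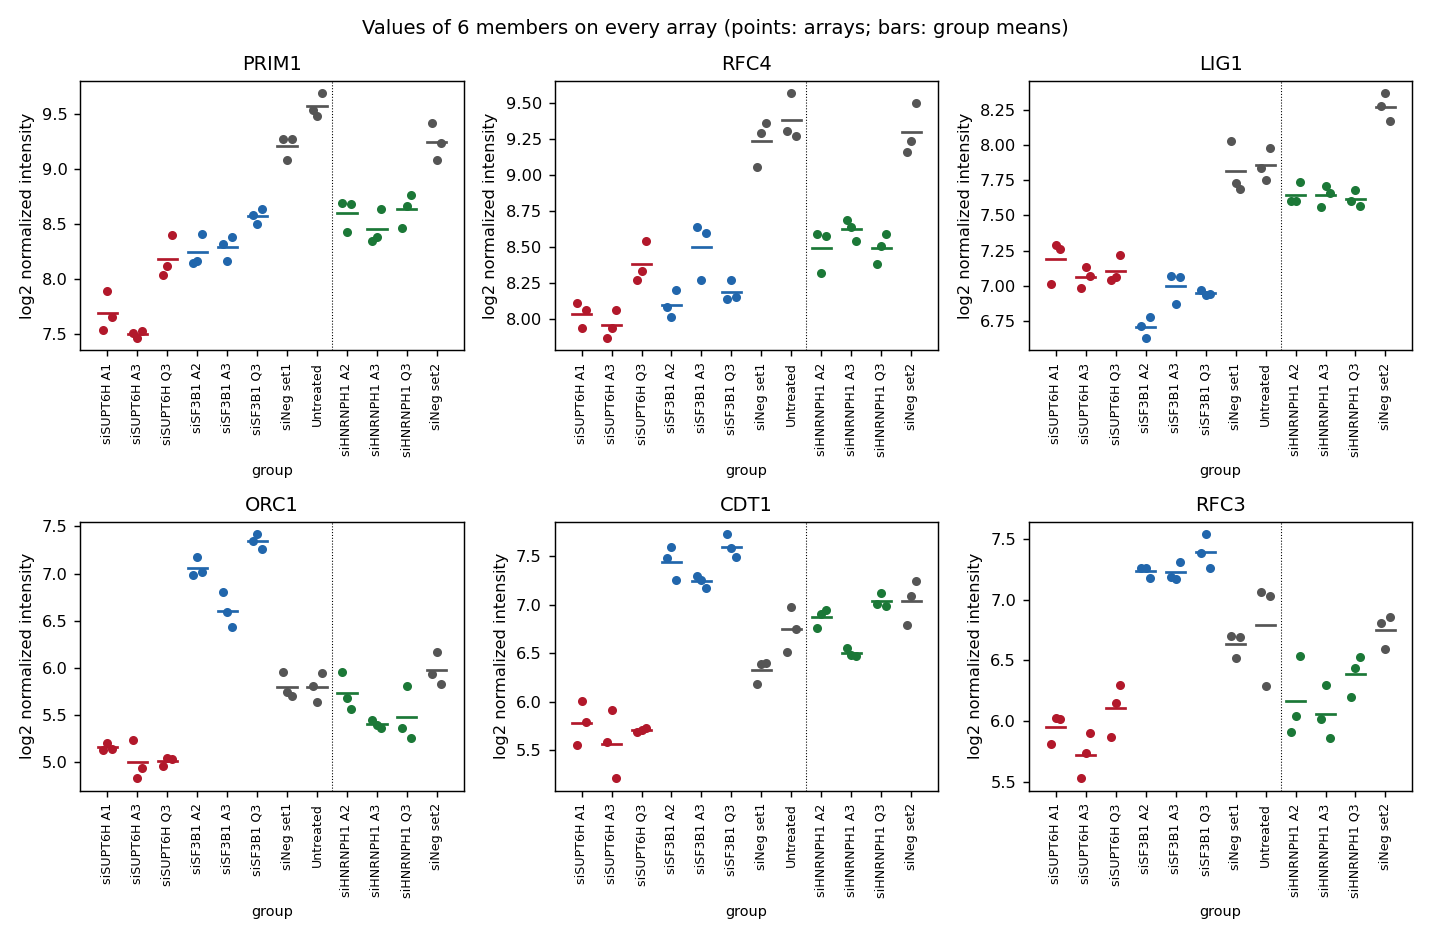
Log2 normalized intensity (vertical axis) of 6 members on every array, by group. Points are arrays and bars are group means, with siSUPT6H in red, siSF3B1 in blue, siHNRNPH1 in green and siNeg and Untreated in grey; the dotted line parts the arrays of set 1 from those of set 2. PRIM1, RFC4 and LIG1 lie below siNeg with every siRNA, and ORC1, CDT1 and RFC3 lie below it with siSUPT6H and above it with siSF3B1.

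Of the 3 subunits of RPA, which coats single-stranded DNA, RPA3 fell by 0.47 ± 0.09 with siSUPT6H, RPA2 rose by 0.71 ± 0.08 with siSF3B1 and RPA1 rose by 0.28 ± 0.08 with siHNRNPH1. The RPA1 value came from A3 (0.57), with 0.15 for A2 and 0.11 for Q3 not called (F test, adjusted p = 0.000134). The other RPA1 probes had 0.09 and 0.16, neither called, and the adjusted p of RPA1 was 0.278 with siRNAs as a random block. RPA2 was 10.38, 10.45 and 10.67 with siSF3B1 as lowest, median and highest, above all arrays of siNeg set 1, which ran up to 9.89. LIG1, the ligase that joins Okazaki fragments, was 6.98, 7.07 and 7.29 with siSUPT6H and 6.63, 6.93 and 7.07 with siSF3B1 as lowest, median and highest, against 8.03, 7.73 and 7.69 in siNeg set 1. With siHNRNPH1 LIG1 was 7.56, 7.60 and 7.74, against 8.28, 8.37 and 8.17 in siNeg set 2. It fell without overlap by 0.70 ± 0.09, 0.93 ± 0.09 and 0.64 ± 0.09 in that order, and the siRNAs of a target were not told apart by the F test (adjusted p = 0.659, 0.113 and 0.954). FEN1, the nuclease that trims the fragments before LIG1 joins them, had 0.00 ± 0.09 with siSUPT6H and rose by 0.57 ± 0.09 with siSF3B1, and against Untreated FEN1 had −0.10 ± 0.09 with siSF3B1.

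Of 5 nucleotide supply genes 4 were lower and 0 were higher with siSUPT6H (median −0.38), 0 were lower and 2 were higher with siSF3B1 (median 0.14), and 0 were lower and 2 were higher with siHNRNPH1 (median −0.01). By limma at an unadjusted p under 0.05 the count of lower genes was 0 with siSF3B1 and 0 with siHNRNPH1 as well, and that of higher genes 0 with siSUPT6H. RRM2 and TYMS were called lower with siSUPT6H, and DUT higher with siSF3B1, in the random-block model. The adjusted p was then 0.0869 for DUT and 0.340 for RRM1 with siSUPT6H, 0.0834 for TK1 with siSF3B1, and 0.210 for DUT and 0.443 for TK1 with siHNRNPH1. RRM2, the small subunit of ribonucleotide reductase, fell by 0.67 ± 0.13 with siSUPT6H and had 0.14 ± 0.13 with siSF3B1. TYMS, which makes dTMP, was 9.36 at the lowest, 9.70 at the median and 9.98 at the highest of 9 siSUPT6H arrays, against 10.27 to 10.33 in siNeg set 1, and fell by 0.56 ± 0.08 without overlap. DUT, which removes dUTP, fell by 0.38 ± 0.08 with siSUPT6H, rose by 0.41 ± 0.08 with siSF3B1 and rose by 0.31 ± 0.08 with siHNRNPH1. The 2 dimmer DUT probes had 0.74 ± 0.10 and −0.24 ± 0.11 with siSF3B1, so its probes disagreed there. In the same order they had −0.10 ± 0.10 and −0.22 ± 0.11 with siSUPT6H, neither called. With siHNRNPH1 they had 0.17 ± 0.10 and 0.16 ± 0.11, again neither called. TK1, the thymidine salvage kinase, had −0.17 ± 0.10 with siSUPT6H (adjusted p = 0.144) and rose by 0.42 ± 0.10 with siSF3B1 and by 0.26 ± 0.10 with siHNRNPH1. RRM1, the large reductase subunit, fell by 0.22 ± 0.07 with siSUPT6H, mostly with A3.

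Regulators of the G1/S step also divided by target. Of 6 measured genes 3 were lower and 1 was higher with siSUPT6H, 2 were lower and 3 were higher with siSF3B1, and 4 were lower and 0 were higher with siHNRNPH1. The random-block model called E2F2 lower with siSUPT6H, CCNE1 and CDK4 lower and CDK2 and E2F2 higher with siSF3B1, and CCNE1 lower with siHNRNPH1, where the adjusted p was 0.413 for CCND1, 0.278 for CDK4 and 0.275 for E2F2. CCNE1, which encodes cyclin E1, the partner of CDK2, had the largest fall of all members with siHNRNPH1. It was 5.07 at the lowest, 5.60 at the median and 5.85 at the highest with siHNRNPH1, against 6.46, 6.80 and 6.63 in siNeg set 2, and 4.65, 5.24 and 5.61 with siSF3B1, against 5.87, 5.95 and 6.05 in siNeg set 1. Neither pair overlapped, and CCNE1 fell by 1.08 ± 0.14 and 0.75 ± 0.14, while it had −0.28 ± 0.14 with siSUPT6H (adjusted p = 0.0851). CCNE1 was detected on 33 of 36 arrays. CDK2 was 8.09, 8.32 and 8.50 with siSF3B1 as lowest, median and highest, against 7.62, 7.35 and 7.61 in siNeg set 1, and rose by 0.79 ± 0.09 without overlap, though a dimmer CDK2 probe had 0.14 ± 0.14. CDK2 fell by 0.33 ± 0.09 with siSUPT6H.

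E2F2, an activator of replication genes, was 7.60 at the lowest, 7.84 at the median and 7.92 at the highest with siSUPT6H and 8.91, 9.13 and 9.31 with siSF3B1, against 8.27, 8.57 and 8.27 in siNeg set 1. Both groups stood apart from siNeg, with changes of −0.56 ± 0.08 and 0.73 ± 0.08. E2F1, its close relative, was called higher with siSUPT6H (0.47 ± 0.16), though with A3 only among the single siRNAs, and rose with all 3 siSF3B1 siRNAs (0.57 ± 0.16). E2F1 was detected on 31 of 36 arrays. In the random-block model its adjusted p was 0.326 with siSUPT6H and 0.138 with siSF3B1. CDK4, the kinase of cyclin D, fell by 0.45 ± 0.07 with siSF3B1. CCND1, which encodes cyclin D1, fell by 0.31 ± 0.07 with siSUPT6H and by 0.20 ± 0.07 with siHNRNPH1, where A3 was the siRNA called.

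Genes that copy chromatin and DNA methylation at the fork fell with siSUPT6H in 4 of 5 cases, with siSF3B1 in 3 and with siHNRNPH1 in 1, and none rose. CHAF1B and UHRF1 were called lower with siSUPT6H, and DNMT1 with siSF3B1, under the random block, while with siHNRNPH1 0 were lower (1 at an unadjusted p under 0.05 by limma). CHAF1A and CHAF1B, subunits of the chromatin assembly factor CAF-1, fell by 0.66 ± 0.14 and 0.62 ± 0.10 with siSUPT6H. With siSF3B1 CHAF1B fell by 0.47 ± 0.10 and CHAF1A had 0.18 ± 0.14 (adjusted p = 0.243). DNMT1, the maintenance DNA methyltransferase, fell by 0.32 ± 0.08 with siSUPT6H and by 0.79 ± 0.08 with siSF3B1. UHRF1, which brings DNMT1 to the fork, fell by 0.39 ± 0.07 and 0.19 ± 0.07. The fork protection gene TIMELESS fell by 0.71 ± 0.09 with siSUPT6H and by 0.43 ± 0.09 with siHNRNPH1, where siRNA A3 gave −0.87, A2 −0.30 and Q3 −0.11 (F test, adjusted p = 3.99e-07). DTL, which targets CDT1 for destruction in S phase, fell by 0.57 ± 0.11 with siSUPT6H, with A1 and A3 but not Q3 called. ASF1B, a histone chaperone of the fork, was called with none of the targets (−0.16 ± 0.12, 0.09 ± 0.12 and −0.29 ± 0.12 with siSUPT6H, siSF3B1 and siHNRNPH1 in that order).

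**Figure D3:**
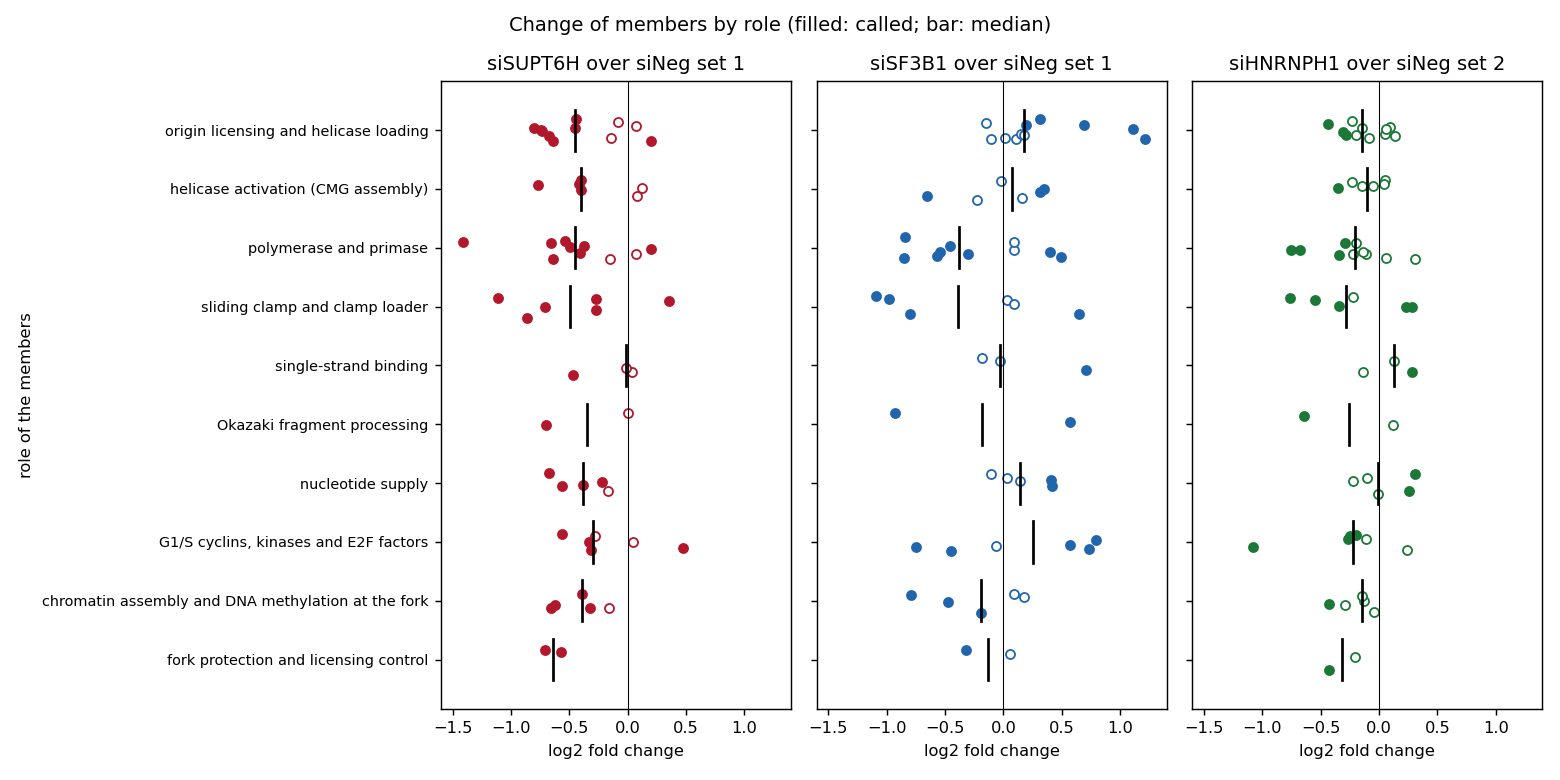
Log2 fold change of the 56 measured members (horizontal axis) by role for each target over its siNeg set; filled points were called, open points were not, and the bar is the median of the role. Licensing genes centre below 0 with siSUPT6H (median −0.45) and above 0 with siSF3B1 (median 0.18), while polymerase genes centre below 0 with both (medians −0.45 and −0.38).

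The differences between targets were tested directly in the same model. Between siSUPT6H and siSF3B1, where the shared siNeg arrays cancel, 38 members were lower with siSUPT6H and 11 were higher, against 30.6% and 42.7% of all genes. Of the licensing genes 9 of 11 were lower and 1 was higher with siSUPT6H than with siSF3B1, and of the nucleotide genes 5 of 5 were lower. Of the polymerase genes 5 of 10 were lower and 2 were higher, and of the clamp and loader genes 3 of 6 were lower and 3 were higher. MCM2 differed by −1.12 ± 0.06 and CDK2 by −1.12 ± 0.06. The difference was −0.10 ± 0.08 for POLE (95% interval −0.26 to 0.05) and 0.08 ± 0.05 for POLD2 (−0.02 to 0.19), and neither passed the test. RFC1 and CDK4 were higher with siSUPT6H than with siSF3B1, by 0.53 ± 0.07 and 0.51 ± 0.05.

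The comparisons with siHNRNPH1 set each target over its own siNeg set. siSUPT6H minus siHNRNPH1 was called lower in 19 members and higher in 3, against 13.7% and 16.5% of all genes, with the largest negative differences for PRIM1 (−0.74 ± 0.13), DUT (−0.68 ± 0.11) and MCM2 (−0.66 ± 0.12), and CCNE1 on the other side (0.80 ± 0.19). Under the random block 0 members were called either way by limma (1.62% of all genes lower and 1.25% higher), with 5 lower and 1 higher at an unadjusted p under 0.05. The adjusted p was then 0.145 for PRIM1, 0.0808 for DUT, 0.204 for MCM2 and 0.286 for CCNE1. siSF3B1 minus siHNRNPH1 was called lower in 9 members and higher in 14, against 29.6% and 22.8% of all genes, led by ORC1 (1.64 ± 0.17) and CDT1 (1.34 ± 0.16). Under the random block 1 was lower and 5 were higher, against 10.8% and 8.14% of all genes. The siNeg sets themselves differed in 36.4% of all genes and in 32 of 56 members. The direction of that difference turned with the scaling, so levels were not set across the sets. Here 6 members were lower and 26 higher in set 2, but 34 were lower and 1 higher in the authors' normalized values. In the authors' values most of all genes were also lower in set 2 and few were higher. The counts from those values are therefore not a result about the members.

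Many members were lower with siNeg than in Untreated. With siNeg set 1 28 of 56 members were lower than in Untreated and 0 were higher (also 0 at an unadjusted p under 0.05), where 4.76% and 2.67% of all genes were called by limma. With siRNAs as a random block 0 members were called (0.00874% of all genes in each direction), TK1 having the lowest adjusted p at 0.370, and 22 were lower at an unadjusted p under 0.05. The median change was −0.38, against −0.01 for all genes, and 51 members had a change below 0. In 34 members all siNeg arrays lay below all Untreated arrays (60.7%, against 13.7% of all genes), and in 1 member above (1.79%, against 10.5%). TK1 was 7.43, 7.86 and 7.68 with siNeg, against 8.50, 8.73 and 8.60 in Untreated, a fall of 0.95 ± 0.12 without overlap (adjusted p = 1.68e-07). MCM10 was 7.35, 7.34 and 7.64, against 8.20, 8.44 and 8.36, a fall of 0.89 ± 0.13. Next came DTL (−0.78 ± 0.13), ASF1B (−0.76 ± 0.15), FEN1 (−0.68 ± 0.11), POLE2 (−0.62 ± 0.13), RFC5 (−0.62 ± 0.11), CDC7 (−0.61 ± 0.14), PCNA (−0.60 ± 0.12) and MCM6 (−0.60 ± 0.09). By role 4 of 11 licensing genes were lower, 5 of 6 of helicase activation, 4 of 10 polymerase and primase genes, 2 of 6 of the clamp and loader, 3 of 5 nucleotide supply genes and 4 of 5 of chromatin assembly. CDKN1A, an inhibitor of cyclin-dependent kinases, was higher with siNeg by 0.37 ± 0.11 (adjusted p = 0.0249).

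Members with large falls with siSUPT6H differed in this comparison. RFC4 had −0.14 ± 0.11, LIG1 −0.04 ± 0.11, POLE −0.09 ± 0.13, RFC2 −0.06 ± 0.15, MCM2 −0.09 ± 0.10 and ORC1 0.00 ± 0.15 with siNeg against Untreated, none of them called. PRIM1 fell by 0.36 ± 0.11, CDC45 by 0.47 ± 0.11 and MCM5 by 0.51 ± 0.10, each called. Set against Untreated, siSUPT6H had 51 members lower and 1 higher (22.1% and 24.6% of all genes), and siSF3B1 had 36 lower and 9 higher (36.9% and 25.1%). With siSF3B1 ORC1 (1.21 ± 0.12), CDT1 (0.68 ± 0.12), RFC3 (0.49 ± 0.13) and E2F2 (0.30 ± 0.08) were higher than in Untreated as well, whereas DUT had 0.01 ± 0.08 and TK1 was lower (−0.53 ± 0.10). The siNeg against Untreated calls rest on 3 arrays each.

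**Figure D4:**
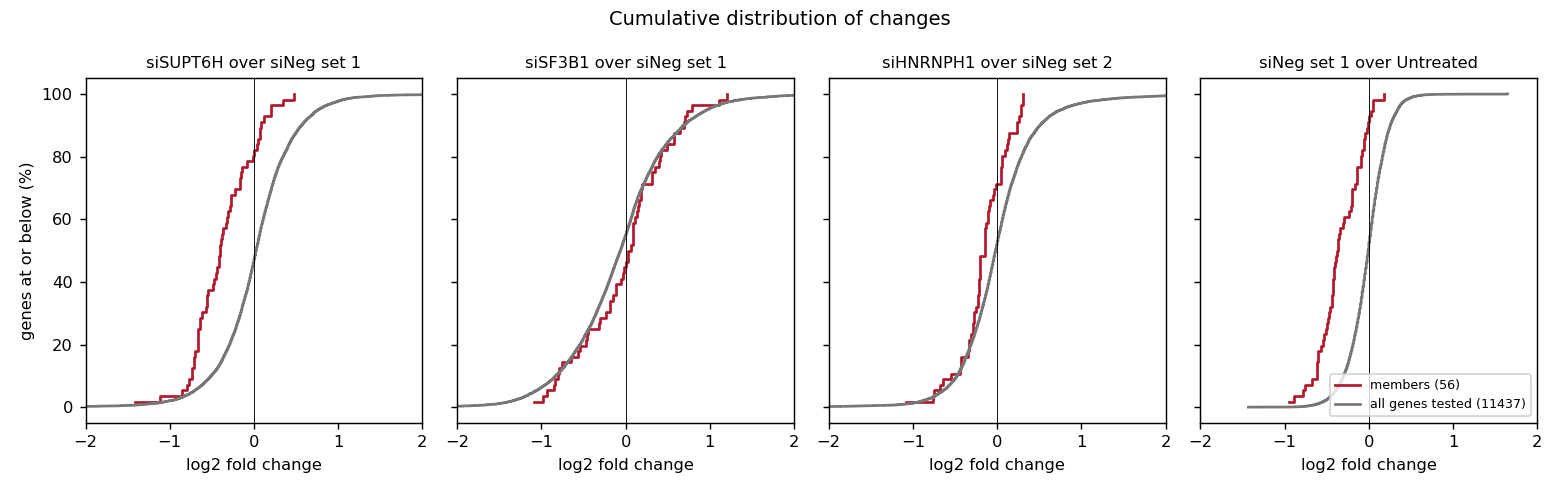
Share of genes (vertical axis, %) with a log2 fold change at or below the value on the horizontal axis, for the 56 measured members (red) and all 11437 genes (grey). The members lie to the left of all genes with siSUPT6H and with siNeg over Untreated (medians −0.40 and −0.38), nearer to them with siHNRNPH1 and along them with siSF3B1.

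**Figure D5:**
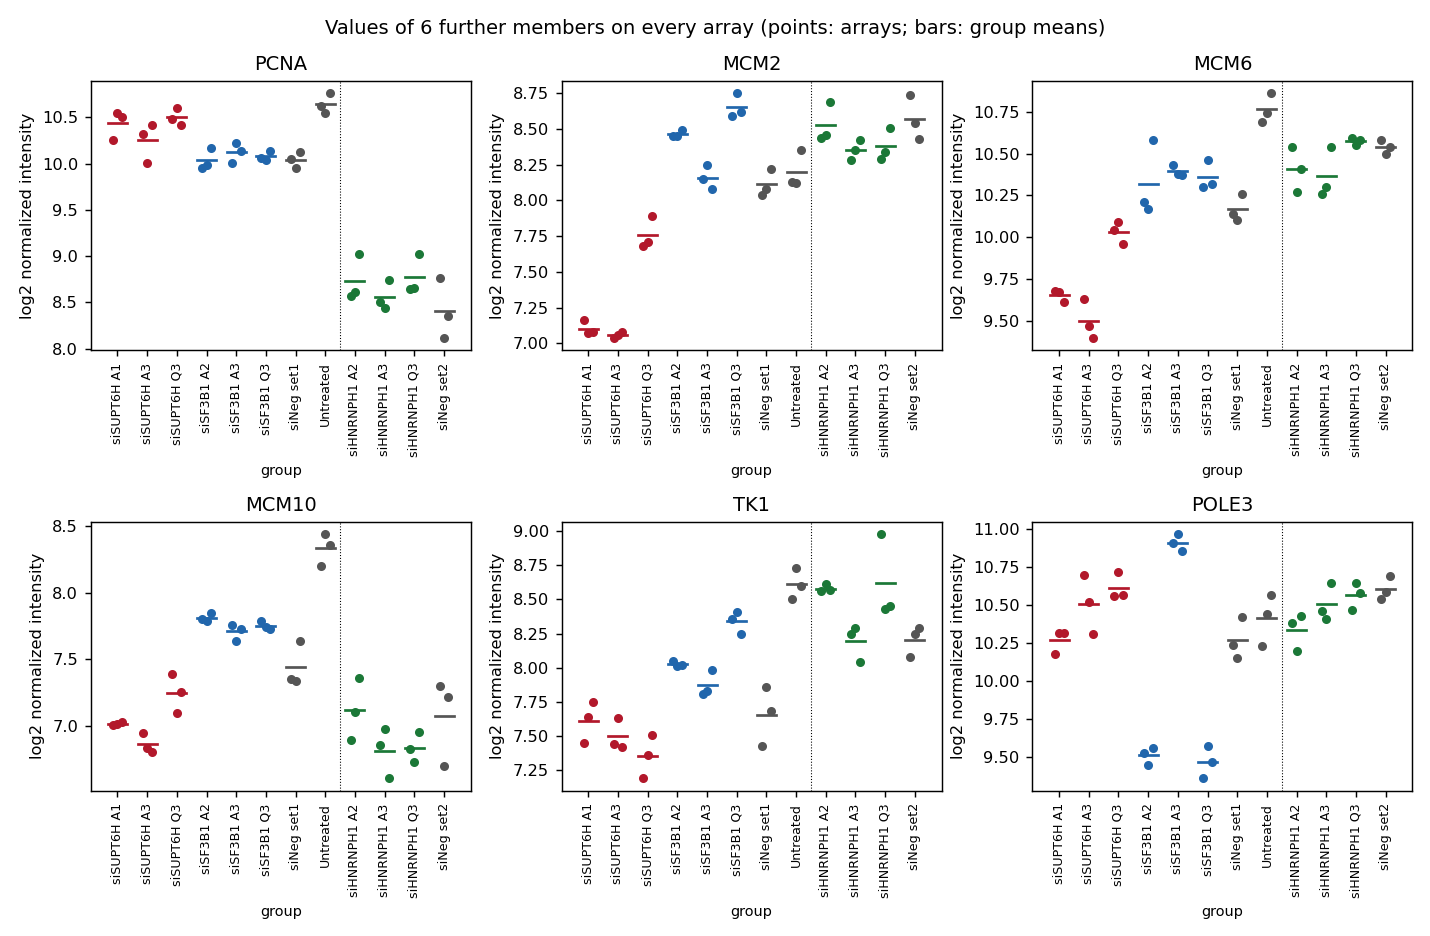
Log2 normalized intensity (vertical axis) of 6 further members on every array, by group; points, bars, colours and dotted line are as in the plot of PRIM1, RFC4, LIG1, ORC1, CDT1 and RFC3. MCM10 and TK1 are lower with siNeg set 1 than in Untreated, MCM2 is lowest with siSUPT6H A1 and A3, and POLE3 with siSF3B1 is below siNeg with A2 and Q3 and above it with A3.

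Other genes of the cell cycle, from lists of their own, give the setting. By limma 21.8% of all genes were lower and 25.7% higher with siSUPT6H, 35.7% and 26.2% with siSF3B1, and 23.5% and 21.6% with siHNRNPH1. With siSF3B1 the further replication genes, at 28.0% lower and 20.0% higher, were not above these shares. Among 25 further replication genes 11 were lower and 1 was higher with siSUPT6H, 7 were lower and 5 were higher with siSF3B1, and 12 were lower and 1 was higher with siHNRNPH1. ORC3, an ORC subunit, fell with all 3 targets (−1.12 ± 0.09, −1.07 ± 0.09 and −0.71 ± 0.09), and CHEK1, the checkpoint kinase, fell with siSUPT6H (−1.01 ± 0.09) and siHNRNPH1 (−0.65 ± 0.09) but rose with siSF3B1 (1.14 ± 0.09). Among 19 further nucleotide genes 10 were lower with siSUPT6H, 11 with siSF3B1 and 14 with siHNRNPH1, and 3, 4 and 2 were higher in the same order. SHMT2, the mitochondrial serine hydroxymethyltransferase, fell by 0.92 ± 0.08, 2.09 ± 0.08 and 1.19 ± 0.08, and DCK, the deoxycytidine kinase, rose by 1.32 ± 0.12 with siSF3B1. Among 28 further G1/S regulators 8 were lower and 5 were higher with siSUPT6H, 9 and 12 with siSF3B1, and 11 and 6 with siHNRNPH1. The lower counts under the random block, in that order of targets, were 5, 4 and 3 for the replication genes, 5, 10 and 7 for the nucleotide genes and 4, 3 and 2 for the G1/S regulators. The shares of all genes called lower were then 8.22%, 20.4% and 6.58%.

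CDKN1A, which encodes p21, rose with siSUPT6H by 2.18 ± 0.09 and with siHNRNPH1 by 2.02 ± 0.09, and fell with siSF3B1 by 0.72 ± 0.09, in each case with all 3 siRNAs. Of 45 G2/M and mitosis genes 44 were lower and 0 were higher with siSUPT6H (median −0.84), 12 were lower and 20 were higher with siSF3B1 (median 0.10), and 36 were lower and 0 were higher with siHNRNPH1 (median −0.42). The shares of all genes in that order were 21.8%, 35.7% and 23.5% lower and 25.7%, 26.2% and 21.6% higher. Under the random block 38, 5 and 17 mitotic genes were lower in that order, against 8.22%, 20.4% and 6.58% of all genes. With siSF3B1 11 were then higher, against 15.2% of all genes. Most members of the replication set were lower beside the mitotic genes with siSUPT6H only (38 of 56, median −0.40). For siHNRNPH1 18 of 56 members were lower (median −0.15), and for siSF3B1 17 were lower and 17 were higher (median 0.05). The part of the mitotic shifts in those of the replication genes was not tested. With siNeg against Untreated the mitotic genes had a median of −0.02, with 2 lower and 4 higher, whereas the replication set had a median of −0.38. By limma at an unadjusted p under 0.05 0 mitotic genes were higher with siSUPT6H and 1 with siHNRNPH1.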

How the data were processed

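Total RNA of TC32 cells was hybridized to 36 Illumina bead arrays. The authors deposited raw bead intensity values for 47323 probes, each with a deposited detection p-value, per the file headers. A second table holds log2 values that the authors normalized, with GenomeStudio, R 3.0.2 and lumi named in the submitters' processing notes. It served as an alternative, and for 36 of 36 arrays its best match was a column of the same group. In the raw table the columns headed UTR were read as Untreated, because all other columns matched a sample title. They were matched to that group and not to single samples. 0 columns were left without a group. Chip and scan identities are not given in the sources used here.

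Intensities were background-corrected and quantile-normalized by the neqc function (limma 3.58.1, run under R 4.3.3). Probes with a detection p below 0.01 on at least 3 arrays were kept (19738). Symbols came from the platform annotation, updated by Entrez number: 30113 probes had 1 symbol, 8 several and 17202 none, and the last 2 kinds were left out of gene results. The kept probe with the highest mean stood for a gene (3008 of 11437 genes had several), so it can miss other transcripts of the gene.

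One limma model (lmFit, eBayes with an intensity trend) held 12 groups of 3 arrays (24 residual degrees of freedom). All tests were two-sided, adjusted over 11437 genes and called below 0.05. Fold changes are differences of log2 normalized intensity with their standard errors. For a target they are the mean of 3 siRNAs, and their error covers the spread between arrays and not that between siRNAs. Their precision is limited by the number of arrays. In simulated data with the spread within groups of these arrays, tested for siSUPT6H over 11437 genes, 74.0% of changes of 0.5 and 100% of changes of 1 were called, and 4.40% of calls were false. The spread between siRNAs was not part of that spread, and the share of false calls with it was not tested.

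The members and gene lists were chosen with earlier results of these data known. Any member could be named. Values on arrays were given for PCNA, MCM2 and PRIM1 and, for each target, the 4 largest falls and 4 largest rises among members called with all 3 siRNAs; from other lists the 4 largest changes could be named, and CDKN1A and the targeted genes were named whatever their result. POLE3, TK1, MCM10, RFC3, RPA2 and TYMS were given by array after their values were seen. Alternatives were the background correction, the authors' values, separate normalization of the 2 sets, the detection filter, the probe rule, the control arrays, a replicate block, siRNAs as a random block, siRNAs or arrays left out and the eBayes trend.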

Additional observations from a re-analysis of the deposited data

Results flagged for a closer look

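The members listed here were picked as called lower with all 3 siSUPT6H siRNAs and higher with all 3 siSF3B1 siRNAs. The difference between the targets is made of those same values, so its test, also with siRNAs as a random block, adds no support. The share of all genes with this pattern was not counted. ORC1 differed by −1.95 (siSUPT6H −0.74, siSF3B1 1.21), CDT1 by −1.74 (−0.64 and 1.11), RFC3 by −1.36 (−0.71 and 0.65), E2F2 by −1.30 (−0.56 and 0.73) and DUT by −0.78 (−0.38 and 0.41). With siRNAs as a random block the differences had adjusted p of 8.65e-15 for ORC1, 1.34e-13 for CDT1, 1.87e-09 for RFC3, 7.19e-15 for E2F2 and 3.30e-08 for DUT, while the fall of DUT with siSUPT6H alone had an adjusted p of 0.0869. The fall of DUT with siSUPT6H was called at its brightest probe only, and its probes disagreed with siSF3B1. No group held 4 to 10 arrays, so single arrays were not tested as outliers.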

How the results depend on the processing

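The 83 calls of single members with all 3 siRNAs, or with siNeg against Untreated, had the same direction and side of the threshold without background correction, in the authors' normalized values and with the 2 sets normalized separately. Calls were lost without the detection filter (4), with the mean of all probes (6), with all 6 siNeg arrays as control (13), without the intensity trend (4), with Untreated as control (1, of 55 that could be compared), and in 28 cases with an array left out (800 were the same). FEN1 turned to −0.10 with siSF3B1 against Untreated. With siRNAs as a random block (correlation 0.451) 34 of 83 were lost. Members called lower were then 24 (siSUPT6H), 5 (siHNRNPH1) and 0 (siNeg against Untreated, 22 at an unadjusted p under 0.05), and higher 0 (siSUPT6H, also 0 unadjusted), 9 (siSF3B1) and 0 (siHNRNPH1, also 0 unadjusted). Of the target differences siSUPT6H minus siSF3B1 gave 7 higher (31.2% of all genes). siSUPT6H minus siHNRNPH1 gave 0 lower and 0 higher (5 and 1 unadjusted), against 1.62% and 1.25% of all genes. siSF3B1 minus siHNRNPH1 gave 1 lower and 5 higher (10.8% and 8.14%), and set 2 against set 1 had 2 higher (0.630%).

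With Untreated as control siSUPT6H had 1 higher (24.6% of all genes), and with all 3 siRNAs 42 lower and 1 higher. siSF3B1 had 36 lower and 9 higher (36.9% and 25.1% of all genes), and with all 3 siRNAs 28 lower and 4 higher. siHNRNPH1, which then crosses the sets, had 28 lower and 2 higher (24.4% and 32.7% of all genes), and 16 lower with all 3. With all 6 siNeg arrays siSUPT6H had 2 higher with all 3, siHNRNPH1 10 higher (28.5% of all genes) and 2 higher with all 3. siSUPT6H minus siHNRNPH1 then had 42 lower and 7 higher (37.7% and 29.4% of all genes), and siSF3B1 minus siHNRNPH1 26 lower (46.4%). The mean of all probes gave 2 higher for siSUPT6H (25.6% of all genes) and 8 lower with all 3 for siHNRNPH1. For siSF3B1 minus siHNRNPH1 it gave 4 lower (29.4%). No background correction gave 8 lower with all 3 for siHNRNPH1. No detection filter gave 5 lower for siSF3B1 minus siHNRNPH1, and leaving out siHNRNPH1 Q3 gave 2 higher for siHNRNPH1. The authors' values gave 34 lower and 1 higher for set 2 against set 1, where most of all genes were lower too. Leaving out single arrays gave 1 to 4 higher with siSUPT6H (1 without siNeg set 1 array 2, 2 without array 1) and 0 to 1 with all 3. With siHNRNPH1 it gave 3 to 6 higher (3 without siNeg set 2 array 4) and 0 to 1 with all 3, and for siSF3B1 minus siHNRNPH1 5 to 9 lower (5 without siNeg set 2 array 5).

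The replicate numbers were not used to pair arrays in the main model. Deviations of arrays sharing a number had a median correlation of 0.01 (81 pairs, 6 over 0.1). By these deviations 16 of 33 arrays fitted best with their own number. Whether that is more than random numbers would give was not tested. With the replicate block, which left out Untreated, siHNRNPH1 had 8 members lower with all 3 siRNAs, and no other count moved by over 1.5 times.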
